A study of Mus musculus with 12 samples.

Results

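Hspa1a, Hspa1b, Hspa8, Hsph1, Dnajb1, Hsp90aa1, Hspb1, Bag3, Hsf1 and Hspa4l, 10 genes of the cytosolic heat shock chaperone system, were followed across 12 mouse brain libraries. They were chosen by symbol and by their place in this system, matched through Ensembl identifiers, and are 10 of the 38924 genes in the tables. The choice of these genes and of the lists below was made with earlier results of these data known. Their counts beside the shares of all genes are therefore a description only. All 10 passed the low-count filter that left 16493 genes for testing. Because Hspa1a and Hspa1b are near-identical copies between which sequence reads can be exchanged, their sum was analysed beside them.

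Polyadenylated RNA was sequenced from whole brains of 6-week-old mice, 1 library per animal and 3 animals in each of 4 genotypes. The mutants were homozygous for the h1 (Rorbh1/h1), h2 (Rorbh2/h2) or h4 (Rorbh4/h4) allele of Rorb, the gene of an orphan nuclear receptor, and belong to the high stepper series; they were set against wild type (WT) mice to learn what each allele does to the brain transcriptome. The strain was C57BL/6J for h1 and WT, B6(Cg)-Tyrc-2J/J for h2, and B6.129S7-Il1r1tm1Imx/J for h4. All WT mice were C57BL/6J, so allele and background cannot be told apart in h2 and h4. In whole tissue, fewer cells of a type and less RNA per cell cannot be told apart either.

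Hsp70 proteins bind exposed hydrophobic stretches of other proteins in a cycle driven by ATP. J-domain proteins deliver the client and start ATP hydrolysis, while nucleotide exchange factors of the Hsp110 and BAG families let the client go, and some clients pass on to Hsp90. When proteins misfold, as during heat or fever, the transcription factor HSF1 is freed from chaperones and binds heat shock elements, inverted repeats of the unit GAA, in front of chaperone genes. Brain cells hold large amounts of the constitutive members at rest and little of the inducible ones.

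The libraries held 14513825 to 24694178 expected counts, the estimated read pairs per gene that RSEM assigns. Levels below are in CPM, the expected count scaled to the library total, unless TPM, which is also scaled to transcript length, is named. Rorb itself was at 22.6 to 33.1 CPM in h1 mice, 22.6 to 31.1 in h2 mice and 8.65 to 9.11 in h4 mice, against 16.3 to 18.4 CPM in WT. Its log2 fold change in h4 against WT was -0.98 (edgeR adjusted p = 0.0309), and it was called in 12 of 19 alternatives, with adjusted p from 1.76e-08 to 0.119. The Rorb call was lost with Xist as a covariate (0.0691) and without WT replicate 1 (0.119), WT replicate 2 (0.0876), WT replicate 3 (0.0505), h4 replicate 1 (0.0959), h4 replicate 2 (0.0893) or h4 replicate 3 (0.112). The labels do not give sex: Xist, the RNA of the inactive X chromosome, was above 100 CPM in 1 h1, 1 h2, 2 h4 and 3 WT libraries, while the other 5 held 0.557 to 1.34 CPM. Summed markers of neurons were at 4776 to 4995 CPM over all libraries. Summed oligodendrocyte markers were at 12924 to 13364 CPM in h1 mice, 11209 to 12129 in h2 mice and 11288 to 12096 in h4 mice, against 9958 to 11367 CPM in WT, and summed endothelial markers at 157 to 168 CPM in h1 mice, 174 to 183 in h2 mice and 169 to 182 in h4 mice, against 182 to 186 CPM in WT. In h1 mice, summed astrocyte markers were at 5223 to 5527 CPM, against 5083 to 5218 CPM in WT. Summed meningeal fibroblast markers were at 96.5 to 102.9 CPM in h1, against 108.8 to 116.9 CPM in WT. Summed microglia markers were at 187.3 to 190.96 CPM in h1, against 191.4 to 197.3 CPM in WT. In h2 and h4 these sums overlapped WT. Pituitary markers summed to at most 1.996 CPM in h1, 3.01 in h2 and 1.81 in h4, against at most 1.40 CPM in WT. Prl was at 0 in all h1 libraries, and Gh and Prl in all h4 and all WT libraries. The part of these differences between libraries in the values below was not tested, except that Xist was tried as a covariate.

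Hspa1a and Hspa1b encode the stress-inducible Hsp70 proteins. They sit side by side on the minus strand of chromosome 17 in GRCm38, Hspa1a (ENSMUSG00000091971) at 34969190 to 34972156 and Hspa1b (ENSMUSG00000090877) at 34956436 to 34959238, within the major histocompatibility complex. Their transcripts in the GENCODE M21 annotation are 2967 and 2803 bases long and identical at 2495 of 2729 aligned bases (91.4%). Of all 100-base windows, the read length used, 47.1% of Hspa1a and 49.9% of Hspa1b were found letter for letter in the other copy. The sequences in front of the genes are shown because both copies lay below WT in all h1 and h2 libraries. Whether these sequences play a part in that was not tested. In the following 250 bases upstream of each start, from RefSeq on GRCm38.p6 at chr17:34972157-34972406 (minus strand) for Hspa1a and chr17:34959239-34959488 (minus strand) for Hspa1b, capitals mark the match to the heat shock element GAANNTTC.
Hspa1a: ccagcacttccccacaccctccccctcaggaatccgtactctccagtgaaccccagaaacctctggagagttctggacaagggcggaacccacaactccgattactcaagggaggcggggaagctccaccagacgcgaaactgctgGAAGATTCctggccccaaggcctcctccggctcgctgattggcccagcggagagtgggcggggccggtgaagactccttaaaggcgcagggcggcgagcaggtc
Hspa1b: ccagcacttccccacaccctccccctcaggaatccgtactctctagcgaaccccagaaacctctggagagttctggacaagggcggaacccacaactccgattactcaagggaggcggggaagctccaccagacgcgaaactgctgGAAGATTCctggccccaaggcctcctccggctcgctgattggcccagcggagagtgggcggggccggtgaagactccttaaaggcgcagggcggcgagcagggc
The upstream stretches of Hspa1a and Hspa1b are 98.8% identical. Counted from 1 at the 5′ end, they differ by C44T, T47C and T249G, with the Hspa1a base first, and none of the substitutions falls in the capitals. In both, the match GAAGATTC begins at base -104 from the start and is followed by 1 CCAAT box, read on the minus strand of the window as attgg.

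RefSeq windows were at hand for 7 of the 10 genes, matched by symbol. They were 9 in all, because Hsph1 and Dnajb1 each had another annotated start. GAANNTTC and TTCNNGAA, each its own reverse complement, so that both strands are covered, were searched as arrangements of the inverted repeat. Of 7 genes, 4 (Hspa1a, Hspa1b, Hspb1 and Hsph1) held at least 1 match. Of the 32851 windows of the same length in the table, 6.69% held GAANNTTC, 7.17% held TTCNNGAA and 12.8% held either. These shares are per window, while the count of 4 is per gene. CCAAT, searched on both strands, was present in 4 of the 7 genes, against 33.8% of all windows. A match is a description of letters, and no match says only that these letters are not in this window. Shown is 1 window each of Hsph1 at chr5:149636337-149636586 (minus strand), Dnajb1 at chr8:83607925-83608174 (plus strand) and Bag3 at chr7:128523333-128523582 (plus strand). The levels of these genes went with Hspa1a and Hspa1b from library to library or were lower beside them. Capitals again mark the match, which Dnajb1 and Bag3 lack.
Hsph1: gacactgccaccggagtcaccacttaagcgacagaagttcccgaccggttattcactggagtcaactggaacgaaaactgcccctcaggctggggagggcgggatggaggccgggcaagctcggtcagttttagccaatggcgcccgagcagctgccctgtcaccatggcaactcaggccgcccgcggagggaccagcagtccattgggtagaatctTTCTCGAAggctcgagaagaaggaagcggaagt
Dnajb1: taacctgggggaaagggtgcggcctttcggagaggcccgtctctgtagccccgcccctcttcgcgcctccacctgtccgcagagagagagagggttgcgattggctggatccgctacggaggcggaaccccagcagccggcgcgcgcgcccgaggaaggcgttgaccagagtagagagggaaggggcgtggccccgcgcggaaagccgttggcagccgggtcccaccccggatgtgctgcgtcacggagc
Bag3: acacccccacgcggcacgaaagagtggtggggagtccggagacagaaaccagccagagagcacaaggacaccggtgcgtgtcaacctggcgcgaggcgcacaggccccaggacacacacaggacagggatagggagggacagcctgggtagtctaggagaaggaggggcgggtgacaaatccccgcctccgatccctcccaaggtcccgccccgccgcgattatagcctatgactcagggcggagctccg
The match in Hsph1, TTCTCGAA, begins at base -33 in the window shown and at -54 from the other annotated start. Hspb1 carried 2 matches of the GAANNTTC form, at -117 and -97.

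Per transcript length, the 10 genes spanned a wide range of levels, with the constitutive Hsp70 at the top and the inducible Hsp70 genes at the bottom. Mean TPM over the 12 libraries was 2016 for Hspa8, the constitutive Hsc70, and 1003 for Hsp90aa1, the inducible form of cytosolic Hsp90. Next came the Hsp110 family members Hsph1 at 172 TPM and Hspa4l at 105 TPM, which act as nucleotide exchange factors for Hsp70. Dnajb1, a J-domain partner of Hsp70, followed at 43.04 TPM, Hsf1 at 23.3 TPM and Hspb1, a small heat shock protein that holds unfolded clients, at 16.2 TPM. Bag3, an exchange factor that steers clients towards autophagy, was at 9.47 TPM, Hspa1a at 6.39 TPM and Hspa1b at 5.55 TPM. Neighbours in this order overlapped in their 12 library values only for the pair Hspa1a and Hspa1b, for Bag3 with Hspa1a and for Hspb1 with Bag3. The spread between libraries broadly ran the other way. The highest CPM over the lowest was 1.08 for Hsp90aa1, 1.09 for both Hspa8 and Hspa4l, 1.11 for Hsph1 and 1.26 for Hsf1. It was 1.57 for Bag3, 1.61 for Dnajb1, 1.81 for Hspb1, 1.85 for Hspa1b and 2.05 for Hspa1a. Counting error is larger in the low genes, since Hspa1a had 77 to 211 expected counts per library and Hspb1 59 to 155, against at least 31800 for Hspa8.

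The inducible Hsp70 genes were lower in h2 brains than in WT brains, and the decrease passed the test for each copy and for their sum. Levels in h1 also lay below WT but missed the threshold, and levels in h4 overlapped those of WT. For the sum of Hspa1a and Hspa1b, h2 mice had 10.8, 13.1 and 13.97 CPM and WT mice 18.7, 19.7 and 19.7 CPM. All h2 libraries lay below all WT libraries, with means of 12.6 ± 1.65 and 19.4 ± 0.553 CPM (SD, n = 3 each). The sum was 1.52-fold lower in h2, with a log2 fold change of -0.60 (SE 0.11, 95% interval -0.83 to -0.37, edgeR quasi-likelihood adjusted p = 0.0137).

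**Figure D1:**
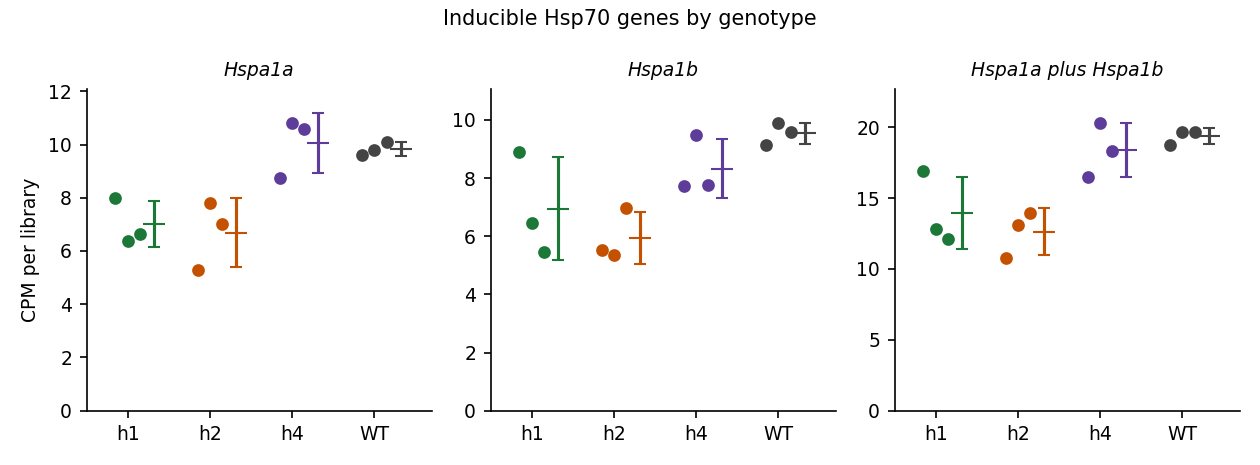
CPM values of Hspa1a, of Hspa1b and of their sum in each library (points), with the mean and SD of each genotype (horizontal line and whiskers, n = 3). For the sum, the h2 points lie between 10.8 and 13.97 CPM, below the WT points between 18.7 and 19.7 CPM, while the h4 points at 16.5 to 20.3 CPM overlap WT.

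Taken singly, Hspa1a was at 5.28, 7.79 and 7.003 CPM in h2 and 9.59, 9.81 and 10.1 CPM in WT. Hspa1b was at 5.52, 5.35 and 6.97 CPM in h2 and 9.13, 9.88 and 9.59 CPM in WT. Neither copy overlapped between the groups. Hspa1a fell by 0.53 on the log2 scale (SE 0.12) and Hspa1b by 0.68 (SE 0.14), both with an edgeR adjusted p = 0.028. These were the 2 of 10 genes called in h2, against 0.679% of all genes tested called in either direction and 0.34% called lower. The h2 call on the sum was lost without WT replicate 1 (adjusted p = 0.0814), WT replicate 2 (0.0933), h2 replicate 1 (0.0518) or h2 replicate 2 (0.0858), and with Xist as a covariate (log2 fold change -0.54, adjusted p = 0.078); over all 19 alternatives for the sum the log2 fold change lay between -0.67 and -0.52 and the adjusted p between 5.65e-06 and 0.159. The call on Hspa1a was lost without WT replicate 1 (0.133), WT replicate 2 (0.12), h2 replicate 1 (0.18) or h2 replicate 3 (0.0684), and that on Hspa1b without WT replicate 1 (0.127), WT replicate 2 (0.15), h2 replicate 1 (0.156) or h2 replicate 2 (0.162). limma on TPM called neither. A 2-sided exact permutation test of the sum gave p = 0.1 for h2 against WT, which is the minimum possible with groups of 3.

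In h1 mice, the sum was at 16.9, 12.8 and 12.1 CPM, against 18.7, 19.7 and 19.7 CPM in WT mice. The h1 libraries all lay below the WT libraries, replicate 1 being the closest to them. Replicate 1 was also the 1 h1 library with Xist above 100 CPM (783 CPM), as all 3 WT libraries were. The order differed in the other mutants. In h4, replicate 2 had Xist at 1.34 CPM and the highest sum of its group, 20.3 CPM. In h2, replicate 2 had Xist at 900 CPM and a sum of 13.1 CPM, between the other h2 libraries at 10.8 and 13.97 CPM. In h1 against WT, the log2 fold change of the sum was -0.47 (SE 0.11, interval -0.69 to -0.24, edgeR adjusted p = 0.0543), which did not pass the threshold. DESeq2 gave an adjusted p = 0.0177 with the same fold change. Over all 19 alternatives the adjusted p ran from 0.000561 to 0.369, the highest being with Xist as a covariate (log2 fold change -0.41). Hspa1a was at 7.98, 6.39 and 6.65 CPM in h1 and 9.59, 9.81 and 10.1 CPM in WT, a difference of -0.48 on the log2 scale (SE 0.12, adjusted p = 0.0505). Hspa1b was at 8.91, 6.46 and 5.47 CPM in h1 and 9.13, 9.88 and 9.59 CPM in WT, a difference of -0.46 on the log2 scale (SE 0.14, adjusted p = 0.187). The sum passed without h1 replicate 1 (-0.62, 0.004), h2 replicate 1 (-0.47, 0.0266), h4 replicate 1 (-0.47, 0.0412) or h4 replicate 2 (-0.47, 0.0349), the values being log2 fold changes and adjusted p. Without h1 replicate 1, the h1 libraries left had Xist at 0.557 and 0.848 CPM, against 866 to 891 CPM in WT. The exact permutation p for h1 against WT was also 0.1.

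In h4 mice, the sum was at 16.5, 20.3 and 18.4 CPM, against 18.7, 19.7 and 19.7 CPM in WT mice. The groups overlapped, and the log2 fold change was -0.09 (SE 0.11, interval -0.31 to 0.14, adjusted p = 0.748; exact permutation p = 0.6). A decrease as large as the central estimate in h2 lies outside this interval. Hspa1a was at 8.75, 10.8 and 10.6 CPM in h4 and overlapped WT (log2 fold change 0.02, SE 0.12). Hspa1b was at 7.71, 9.48 and 7.78 CPM in h4, with a log2 fold change against WT of -0.20 (SE 0.14, adjusted p = 0.486). The share of the sum assigned to Hspa1a was 53.1%, 53.2% and 57.7% in h4, against 51.2%, 49.8% and 51.3% in WT. It ranged from 47.3% to 59.3% over all libraries, a split that depends on how reads common to both copies were assigned.

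The mutant groups were also compared with each other. Each mutant group was on its own strain, so allele and background cannot be told apart in these comparisons either. In h4 against h2, the sum was higher by 0.52 on the log2 scale (SE 0.11, interval 0.28 to 0.75, adjusted p = 0.0145), with h4 libraries at 16.5 to 20.3 CPM and h2 libraries at 10.8 to 13.97 CPM. Hspa1a alone rose by 0.55 in h4 against h2 (SE 0.12, adjusted p = 0.00985), the 1 of 10 genes called there, against 3.22% of all genes called and 1.54% called higher. Hspa1b missed the threshold in that comparison, with 0.47 (SE 0.15, adjusted p = 0.085). In h4 against h1, Hspa1a rose by 0.50 (SE 0.12, adjusted p = 0.0146), again the 1 of 10 called, against 4.64% of all genes called and 2.11% called higher. The sum in h4 against h1 had a difference of 0.38 on the log2 scale (SE 0.11, adjusted p = 0.0523), and the h4 library at 16.5 CPM lay under the h1 library at 16.9 CPM. In h2 against h1 the sum overlapped, with a log2 fold change of -0.13 (SE 0.11, interval -0.37 to 0.10, adjusted p = 0.808). edgeR called 0 of the 10 genes in h2 against h1, against 0.722% of all genes, and 1 had an unadjusted p under 0.05, against 9.49% of all genes; DESeq2 and limma on TPM called 0. Libraries did not overlap for 4 of 10 genes in h4 against h2, 4 of 10 in h4 against h1 and 3 of 10 in h2 against h1, beside 21.7%, 24.2% and 15.5% of all genes. An unadjusted p under 0.05 was reached by 5 of 10 in h4 against h2 and 3 of 10 in h4 against h1, beside 16.8% and 19.1% of all genes. The h4 against h2 call on the sum was lost without h2 replicate 1 (adjusted p = 0.055), h2 replicate 2 (0.0634), h4 replicate 2 (0.0599) or h4 replicate 3 (0.0533). The call on Hspa1a in h4 against h1 was lost without h1 replicate 2 (0.0835), h1 replicate 3 (0.076), h4 replicate 2 (0.0543) or h4 replicate 3 (0.0663), and that in h4 against h2 without h2 replicate 1 (0.0599).

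**Figure D2:**
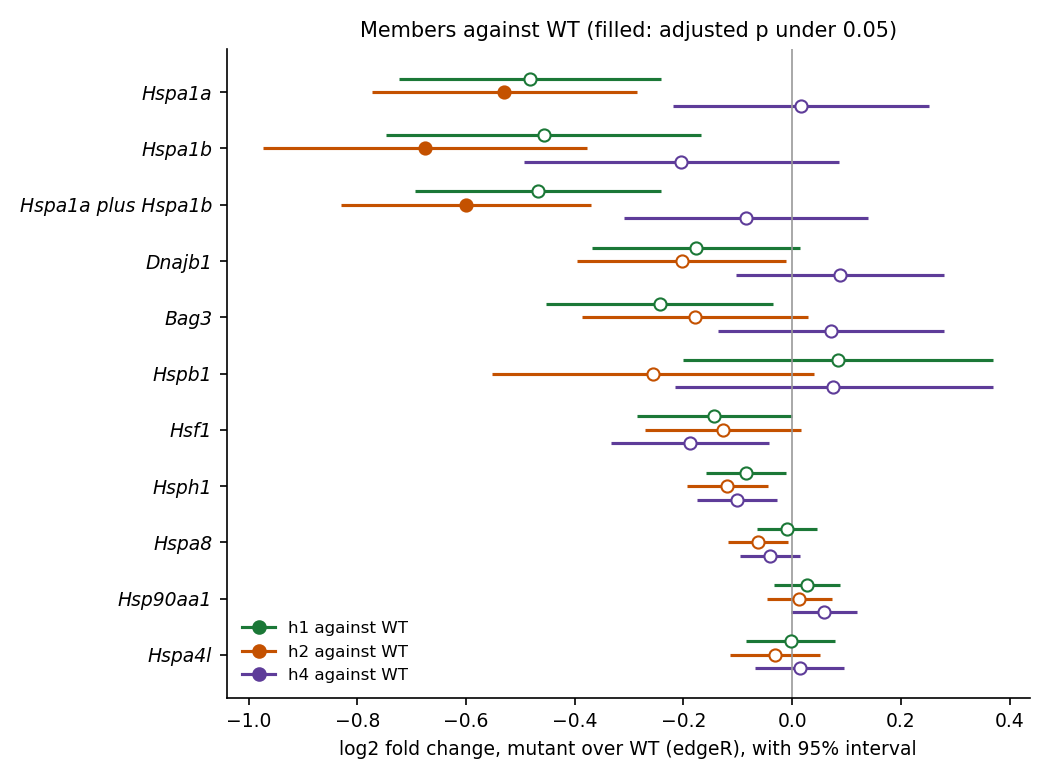
Log2 fold changes of the 10 genes and of the Hspa1a and Hspa1b sum in h1, h2 and h4, each against WT (points, filled where the adjusted p is under 0.05), with 95% intervals from the edgeR fit. The h2 intervals of Hspa1a, Hspa1b and their sum lie below 0, with estimates of -0.53, -0.68 and -0.60. Their h1 intervals also lie below 0, with estimates of -0.48, -0.46 and -0.47 that did not pass. The intervals of Hspa8 and Hsp90aa1 are the narrowest shown.

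Against WT, the 10 genes taken as a group had a median log2 fold change of -0.11 in h1, -0.15 in h2 and 0.02 in h4, beside medians over all genes of 0.00, 0.00 and 0.01. Estimates were negative for 8 of 10 genes in h1, 9 of 10 in h2 and 4 of 10 in h4. All these comparisons share the WT libraries. Libraries of the groups did not overlap for 4 of 10 genes in h1 (Hspa1a, Hspa1b, Hsph1 and Dnajb1, all lower), against 14.9% of all genes in either direction and 8.72% lower. In h2 they did not overlap for 4 of 10 (Hspa1a, Hspa1b, Hspa8 and Hsph1, all lower), against 15.2% in either direction and 7.53% lower, and in h4 for 2 of 10 (Hsph1 lower, Hsp90aa1 higher), against 21.3%. edgeR called 0 of 10 in h1, against 0.625% of all genes, although 5 had an unadjusted p under 0.05, against 9.82% of all genes; DESeq2 and limma on TPM called 0. In h2, 5 of 10 had an unadjusted p under 0.05, against 11.5%. In h4, edgeR called 0 of 10, against 4.55% of all genes, with 2 at an unadjusted p under 0.05, against 17.6%; DESeq2 called 1 and limma on TPM 0.

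Among the partners that deliver clients to Hsp70 or release them, no gene passed the test against WT in edgeR. Dnajb1 was at 45.1, 42.0 and 43.6 CPM in h1 mice, 36.3, 43.0 and 48.8 in h2 mice and 47.7, 58.6 and 52.8 in h4 mice, against 50.5, 49.8 and 48.3 CPM in WT. The h1 libraries lay below WT, the h2 libraries spread widely across its lower edge, and the h4 libraries reached above it. Log2 fold changes against WT were -0.18 in h1 (SE 0.09, adjusted p = 0.55), -0.20 in h2 (SE 0.09, 0.403) and 0.09 in h4 (SE 0.09, 0.676). Bag3 had 11.6, 10.4 and 10.2 CPM in h1 mice, 9.23, 11.9 and 12.3 in h2 mice and 12.9, 13.5 and 14.04 in h4 mice, against 11.2, 14.5 and 12.6 CPM in WT. Every mutant group overlapped WT for Bag3, and its log2 fold changes were -0.24 in h1 (SE 0.10, adjusted p = 0.391), -0.18 in h2 (SE 0.10, 0.524) and 0.07 in h4 (SE 0.10, 0.779). In h4 against h1, both genes had no overlap, with log2 fold changes of 0.27 for Dnajb1 (SE 0.09, adjusted p = 0.114) and 0.32 for Bag3 (SE 0.10, adjusted p = 0.0746), which did not pass. DESeq2 called Dnajb1 in h4 against h1 (adjusted p = 0.0415) and in h4 against h2 (0.0227), and not Bag3 (0.142 and 0.345). In h4 against h1, Dnajb1 was called in 4 of 19 alternatives (adjusted p 0.0168 to 0.298), among them without h2 replicate 1 (0.0168) or h2 replicate 3 (0.0282), and Bag3 in 3 of 19 (0.0352 to 0.263), among them without h2 replicate 1 (0.0471). In h4 against h2, Dnajb1 was called in 3 of 19 (0.00728 to 0.316), among them without h2 replicate 3 (0.00728) or h4 replicate 1 (0.049).

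Hsph1 had the most uniform offset from WT. Its levels were 323, 327 and 323 CPM in h1 mice, 316, 318 and 323 in h2 mice and 320.2, 337 and 317 in h4 mice, against 350.5, 344 and 345 CPM in WT. In CPM, each mutant library lay below each WT library. In TPM the groups overlapped, with h1 replicate 1 at 179.45 and WT replicate 3 at 177.5. The difference was small, with log2 fold changes of -0.09 in h1 (SE 0.04, adjusted p = 0.409), -0.12 in h2 (SE 0.04, 0.135) and -0.10 in h4 (SE 0.04, 0.116). In the mean of the 3 mutants against WT it was -0.10 (SE 0.03, adjusted p = 0.0905), and Hsph1 was the 1 of 10 genes whose mutant and WT libraries did not overlap, against 1.83% of all genes in either direction and 0.879% lower. DESeq2 called Hsph1 in h2 (adjusted p = 0.0137), in h4 (0.0188) and in the mean of the mutants (0.00411). Over all alternatives its adjusted p ran from 0.0137 to 0.404 in h2, from 0.0188 to 0.32 in h4 and from 0.00411 to 0.452 in the mean.

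Hspa4l, the other Hsp110 gene, was at 308 to 319 CPM in h1 mice, 302 to 325.5 in h2 mice and 313 to 327 in h4 mice, against 304 to 328 CPM in WT. All groups overlapped, and the 95% interval of the log2 fold change in h1 was -0.09 to 0.08. Hspa8 was at 2314, 2310 and 2308 CPM in h1 mice, 2191, 2248 and 2288 in h2 mice and 2258, 2331 and 2278 in h4 mice, against 2386, 2314 and 2323 CPM in WT. The h2 libraries were the low ones, 1.04-fold below WT on average, with a difference of -0.06 on the log2 scale (SE 0.03, adjusted p = 0.348). The interval for Hspa8 was -0.06 to 0.05 in h1 and -0.12 to -0.01 in h2, so that a change of the size measured for Hspa1a in h2 lies outside both.

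Hsp90aa1 had 1414, 1406 and 1442 CPM in h1 mice, 1431, 1432 and 1388 in h2 mice and 1471, 1483 and 1454 in h4 mice, against 1422, 1368 and 1420 CPM in WT. The h4 libraries stood above all WT libraries, with a difference of 0.06 on the log2 scale (SE 0.03, adjusted p = 0.314), which did not pass. Hspb1 was at 6.50, 7.01 and 5.79 CPM in h1 mice, 4.06, 5.58 and 5.38 in h2 mice and 5.21, 7.34 and 6.85 in h4 mice, against 5.69, 7.21 and 5.35 CPM in WT. Its widest gap was between mutants, with a log2 fold change of -0.34 in h2 against h1 (SE 0.14, unadjusted p = 0.0246, adjusted p = 0.403). Hsf1, the transcription factor of the response, had 23.6, 20.7 and 21.4 CPM in h1 mice, 23.4, 21.1 and 22.7 in h2 mice and 20.2, 20.8 and 23.5 in h4 mice, against 24.4, 25.4 and 23.3 CPM in WT. Each mutant group reached into the WT range, and log2 fold changes were -0.14 in h1 (SE 0.07, adjusted p = 0.508), -0.13 in h2 (SE 0.07, 0.504) and -0.19 in h4 (SE 0.07, 0.142). The activity of HSF1 depends on its protein state, which these RNA values do not measure.

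**Figure D3:**
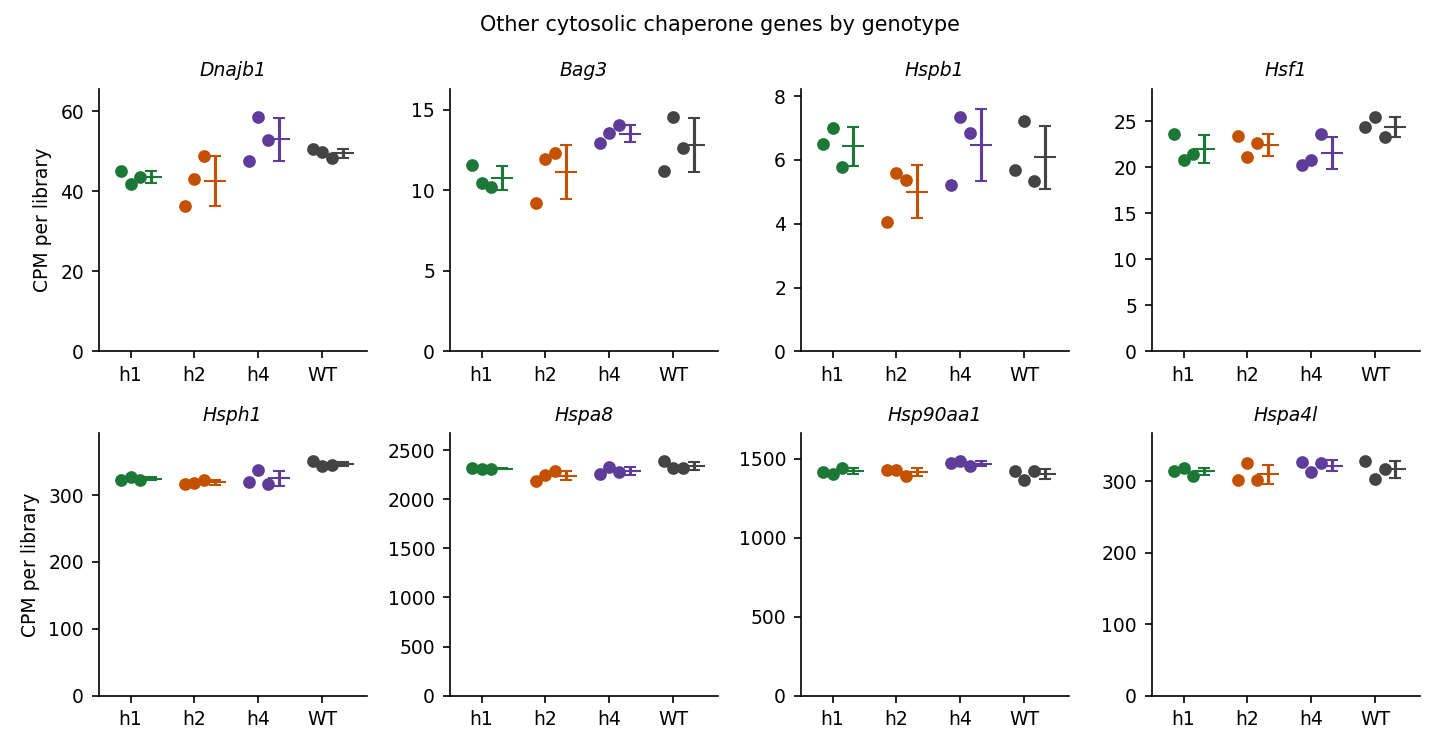
CPM values of the other 8 genes in each library (points), with the mean and SD of each genotype (horizontal line and whiskers, n = 3); each panel has its own scale. Hsph1 points of all mutants, at 316 to 337 CPM, lie below the WT points at 344 to 350.5 CPM, and Dnajb1 points of h4 reach 58.6 CPM against at most 50.5 CPM in WT.

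With the 3 mutants averaged, the sum of Hspa1a and Hspa1b fell by 0.39 on the log2 scale against WT (SE 0.09, interval -0.57 to -0.20, adjusted p = 0.0355), with mutant libraries at 10.8 to 20.3 CPM and WT libraries at 18.7 to 19.7 CPM. The groups overlap through h4 replicate 2. edgeR called 0 of the 10 single genes in this comparison, against 1.1% of all genes, with 4 at an unadjusted p under 0.05, against 12.5%; DESeq2 called 1 and limma on TPM 0. The call on the sum was lost without WT replicate 1 (-0.41, 0.266), WT replicate 2 (-0.37, 0.249), WT replicate 3 (-0.37, 0.0793), h1 replicate 2 (-0.37, 0.0716), h2 replicate 2 (-0.40, 0.0677) or h4 replicate 3 (-0.39, 0.0662), the values being log2 fold changes and adjusted p, and with Xist as a covariate (-0.34, adjusted p = 0.219). Over its 17 alternatives the adjusted p ran from 0.000243 to 0.266.

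Across the 12 libraries, Dnajb1 and Bag3 followed the inducible Hsp70 genes most closely among the other 8 genes, and Hsph1 and Hspa8 more loosely. The level of Dnajb1 followed the sum of Hspa1a and Hspa1b with Pearson r = 0.86 (permutation p = 8e-05, adjusted over 8 relations p = 0.00064) and Spearman rho = 0.84 (adjusted permutation p = 0.00752). Without the 2 libraries farthest from the median of the sum, h2 replicate 1 and h1 replicate 3, r was 0.77, and for deviations from the genotype means it was 0.75. Bag3 followed with r = 0.81 (permutation p = 0.00145, adjusted p = 0.0058), rho = 0.75 (adjusted permutation p = 0.0274), r = 0.62 without those libraries and 0.71 within genotypes. Mice of the same genotype with more inducible Hsp70 RNA tended to have more RNA of Dnajb1 and Bag3. WT mice were an exception for Dnajb1, at 50.5, 49.8 and 48.3 CPM with the sum at 18.7, 19.7 and 19.7 CPM. No p was computed within genotypes, and those r include h2 replicate 1, the shallowest library at 14513825 expected counts. For Hsph1, r was 0.67 (permutation p = 0.0192, adjusted p = 0.0419) and rho 0.61 (adjusted permutation p = 0.0746), with r = 0.63 without those libraries and 0.33 within genotypes. For Hspa8, r was 0.64 (permutation p = 0.021, adjusted p = 0.0419) and rho 0.72 (adjusted permutation p = 0.0277), with r = 0.52 without those libraries and 0.54 within genotypes. Hspb1 (r = 0.55, adjusted permutation p = 0.0984), Hsf1 (0.34, 0.341), Hspa4l (0.33, 0.341) and Hsp90aa1 (0.08, 0.814) did not pass. For Hspb1, whose CPM spread exceeded that of Dnajb1 and Bag3, r was 0.26 without those libraries and 0.60 within genotypes. All values of a library share its depth and its RNA sample. The permutations shuffled all 12 libraries across genotypes, so differences between genotype means enter these p.

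**Figure D4:**
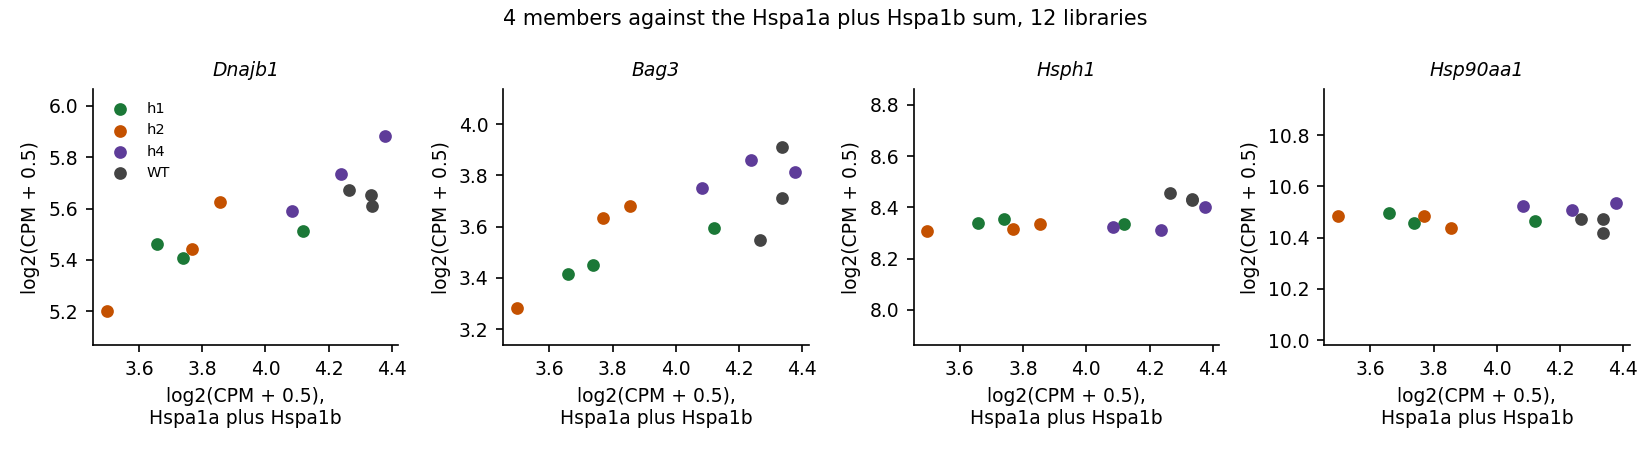
Levels of Dnajb1, Bag3, Hsph1 and Hsp90aa1 (vertical axes, log2(CPM + 0.5)) against the sum of Hspa1a and Hspa1b (horizontal axis, same scale), 1 point per library and 1 colour per genotype; all vertical axes span the same log2 range. Dnajb1 and Bag3 climb with the sum (r = 0.86 and 0.81) while Hsp90aa1 stays level (r = 0.08), and the lowest point of Dnajb1 and of Bag3 is h2 replicate 1, where the sum is at 10.8 CPM.

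The 2 copies themselves correlated at r = 0.80 over the 12 libraries and 0.47 within genotypes. Hspa1a went with Dnajb1 at r = 0.89 and with Bag3 at 0.85, and Dnajb1 with Bag3 at 0.82. Hspa8 and Hsph1 formed the closest pair among the abundant genes, at 0.79. Outside the 10 genes, the 8 whose pattern over the 12 libraries was most like that of the sum, among 11516 genes averaging 5 CPM or more, were P4ha1 (r = 0.97), Zc3h3 (0.96), Lrch3 (0.94), Lime1 (0.94), Ubfd1 (0.93), Chtf8 (0.93), Mafg (0.92) and Pdlim7 (0.92). P4ha1, which encodes a subunit of collagen prolyl 4-hydroxylase, averaged 48.9 CPM in h1, 45.4 in h2 and 56.2 in h4, against 58.0 CPM in WT. In the same ranking Dnajb1 stood at place 25 and Bag3 at 86, while Hsph1 was at 501, Hspa8 at 648 and Hsp90aa1 at 5537. Correlations picked as the highest among so many genes over 12 libraries are a description only.

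Other chaperone and stress genes were read from lists chosen by function. Of 34 tested genes for other cytosolic chaperones and cochaperones, 0 were called in h1 by edgeR and 0 by DESeq2. An unadjusted p under 0.05 was reached by 3 in h1, 7 in h2 and 12 in h4, against 9.82%, 11.5% and 17.6% of all genes. DESeq2 called 2 in h2 and 4 in h4. The share of all genes called by edgeR was 0.625% in h1, 0.679% in h2 and 4.55% in h4. In h2, 1 fell: Chordc1, a cochaperone of Hsp90, was at 63.3, 71.2 and 72.8 CPM in h2 and 82.7, 79.7 and 76.8 CPM in WT (log2 fold change -0.20, SE 0.05, adjusted p = 0.048). In h4, Chordc1 also fell, to 70.6, 71.8 and 69.5 CPM (-0.18, SE 0.05, adjusted p = 0.0287). Hspb8, a small heat shock protein that works with BAG3, rose in h4, with 26.6, 25.7 and 23.6 CPM in h4 and 18.7, 19.1 and 19.3 CPM in WT (0.40, SE 0.08, adjusted p = 0.00208). Over the alternatives, Hspb8 was called in 18 of 19 and Chordc1 in 8 of 19 in h2 and 14 of 19 in h4. The Chordc1 call in h2 was lost without WT replicate 1 (adjusted p = 0.305), WT replicate 2 (0.169), h1 replicate 2 (0.0509), h1 replicate 3 (0.0543), h2 replicate 1 (0.266), h2 replicate 2 (0.0954), h4 replicate 1 (0.0587) or h4 replicate 3 (0.0501), and that in h4 without WT replicate 1 (0.181), WT replicate 2 (0.0902), h4 replicate 1 (0.0851) or h4 replicate 3 (0.11). Hsp90ab1, the constitutive Hsp90 and the most abundant of that list, was at 1314, 1294 and 1313 CPM in h1 and 1373, 1369 and 1356 CPM in WT, with a difference of -0.05 on the log2 scale (SE 0.03, adjusted p = 0.575). Of the 8 subunits of the TRiC chaperonin and of 7 mitochondrial chaperones, 0 were called in any mutant against WT by edgeR, and 0 had an unadjusted p under 0.05; DESeq2 and limma on TPM called 0. Their most abundant members, Tcp1 and Hspa9, were within 0.04 of WT on the log2 scale in every mutant.

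Among 10 heat shock factors and regulators, Ier5, an immediate early gene whose product acts on HSF1, fell in h1, with 37.4, 33.4 and 35.3 CPM in h1 and 47.1, 44.2 and 41.9 CPM in WT (log2 fold change -0.32, SE 0.06, adjusted p = 0.00801). In h2, edgeR called 0 of them and DESeq2 0. DESeq2 called 1 in h1 and 0 in h4. An unadjusted p under 0.05 was reached by 2 of the 10 in h1, 1 in h2 and 4 in h4, against 9.82%, 11.5% and 17.6% of all genes. The share of all genes called by edgeR was 0.625% in h1 and 4.55% in h4. In h4, 2 rose: Atf3, a stress-induced transcription factor, at 1.70, 1.80 and 1.53 CPM in h4 and 0.607, 0.466 and 1.04 CPM in WT (1.25, SE 0.32, adjusted p = 0.0238), and Gadd45b, at 7.63, 7.72 and 8.94 CPM in h4 and 4.86, 5.68 and 6.74 CPM in WT (0.48, SE 0.13, adjusted p = 0.0264). The Ier5 call was lost without WT replicate 1 (adjusted p = 0.123) or h1 replicate 2 (0.106). That on Atf3 was lost without WT replicate 1 (0.119), WT replicate 2 (0.144), h4 replicate 1 (0.0783) or h4 replicate 2 (0.0649), and that on Gadd45b without WT replicate 1 (0.192), WT replicate 2 (0.0983), h4 replicate 1 (0.0559) or h4 replicate 3 (0.138). Folding and stress response genes of the endoplasmic reticulum, a separate compartment, showed the most calls of these lists in h2 and h4. Beside folding genes, the list holds transcription factors, among them Xbp1 and Atf4. Of 20, 10 fell in h2, where 0.679% of all genes were called, and 4 fell in h4, where 4.55% were. In h1, where 0.625% were, edgeR called 0 of the 20, and DESeq2 and limma on TPM called 0. There 2 had an unadjusted p under 0.05, against 9.82% of all genes. Pdia4, a disulfide isomerase, was at 40.4, 42.2 and 44.1 CPM in h2 and 61.7, 63.3 and 51.3 CPM in WT (-0.47, SE 0.07, adjusted p = 0.00642). Manf (-0.41), Xbp1 (-0.43), the transcription factor of the unfolded protein response, and Herpud1 (-0.27) fell beside it. In h4, Atf4 was at 79.6, 81.7 and 84.3 CPM in h4 and 95.9, 97.8 and 103 CPM in WT (-0.28, SE 0.05, adjusted p = 0.000314), and Calr (-0.17), Hsp90b1 (-0.14) and Hyou1 (-0.17) also fell. The Atf4 call held in all 19 alternatives. Without WT replicate 1 the other ER genes named here missed the threshold, with adjusted p of 0.0583 for Pdia4, 0.0836 for Manf, 0.0787 for Xbp1 and 0.083 for Herpud1 in h2, and 0.0937 for Calr, 0.0937 for Hsp90b1 and 0.154 for Hyou1 in h4. Calls were also lost without WT replicate 2 for Manf (0.0633), Xbp1 (0.0502), Herpud1 (0.137), Calr (0.138) and Hyou1 (0.0881), without h2 replicate 1 for Pdia4 (0.0599) and Xbp1 (0.0589), and without h2 replicate 2 for Pdia4 (0.0618), Manf (0.0618) and Herpud1 (0.0858). The same held without h4 replicate 1 for Calr (0.0723), Hsp90b1 (0.0566) and Hyou1 (0.122), and without h4 replicate 3 for Hsp90b1 (0.0684) and Hyou1 (0.101). limma on TPM called 2 of the 20 in h2, and 5 fell there with Xist as a covariate.

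Of the cold-inducible RNA-binding proteins Rbm3 and Cirbp, 0 were called by edgeR in any mutant. Rbm3 was at 129, 104 and 109 CPM in h2 and 91.0, 84.1 and 116 CPM in WT, overlapping, with a difference of 0.22 on the log2 scale (SE 0.14, adjusted p = 0.627). Cirbp was at 61.7, 48.4 and 47.4 CPM in h2 and 40.0, 36.7 and 46.0 CPM in WT, with a log2 fold change of 0.35 (adjusted p = 0.167) that DESeq2 called (adjusted p = 0.012). Of 16 immediate early genes, edgeR called 0 in h1 and 0 in h2. In each, 2 had an unadjusted p under 0.05, against 9.82% and 11.5% of all genes. In h4 it called Jun, at 47.5, 50.3 and 50.5 CPM in h4 and 37.3, 44.6 and 41.9 CPM in WT (0.25, SE 0.06, adjusted p = 0.00916), while 9 of 16 had an unadjusted p under 0.05, against 17.6% of all genes (4.55% called), DESeq2 called 5 and limma on TPM 1, and the list's median log2 fold change was 0.71, beside 0.01 over all genes. Without WT replicate 1 the adjusted p of Jun was 0.102. In h1 the median of this list was -0.34, with 13 of 16 estimates negative. In h2 it was 0.18, with 6 of 16 negative, and the median over all genes was 0.00 in both. Of 12 glucocorticoid-responsive genes, edgeR called 0 in each mutant. An unadjusted p under 0.05 was reached by 6 in h1, 1 in h2 and 0 in h4, against 9.82%, 11.5% and 17.6% of all genes. DESeq2 called 2 in h1 and 0 in h2 and h4. The median log2 fold change of these genes was 0.43 in h1, -0.37 in h2 and 0.12 in h4. Estimates were negative for 0 of 12 in h1, 8 in h2 and 5 in h4. Mt1, a metallothionein, was at 161, 163 and 147 CPM in h1 and 99.5, 126 and 112 CPM in WT (0.49, SE 0.09, adjusted p = 0.0624).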

How the data were processed

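Polyadenylated RNA of 12 whole brains was sequenced as 100-base read pairs with a kit that does not mark strand, per the labels' protocols; RNA came from tissue kept in RNAlater and extracted with TRIzol. The authors deposited 1 RSEM table per library, made with Bowtie2 2.2.0 and RSEM 1.2.12 per the submitters' processing notes; their genome build is not given in the sources used here. In the authors' expected counts, ambiguous read pairs are shared among genes, and 50.0% of the values of the 10 genes were whole. The deposited TPM values scale for library size and transcript length. Depth was 14513825 to 24694178 expected counts per library.

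Symbols and positions came from GENCODE M21 (GRCm38), by identifier, for 37607 of 38924 genes. Expected counts were rounded and tested in edgeR 4.0.16 (quasi-likelihood, R 4.3.3), with TMM factors of 0.991 to 1.012, 1 mean per genotype and all 12 libraries; a second fit had Hspa1a and Hspa1b merged. Adjusted p are Benjamini-Hochberg over all 16493 genes, from edgeR unless another tool is named, and called means under 0.05. Alternatives were DESeq2 1.42.0, limma 3.58.1 on log2(TPM + 0.1), other scalings, no filter, only the groups compared, Xist as a covariate and each library left out. Correlations used log2(CPM + 0.5). The steps were tested on simulated counts. Genes named were all 10, up to 4 called genes per list, or the 1 of highest CPM where none was called, and the 8 genes most like the Hspa1a and Hspa1b sum; Cirbp was added after its values were seen. The 10 genes and the lists were chosen with earlier results of these data known.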

Additional observations from a re-analysis of the deposited data

How the results depend on the processing

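The main limit is 3 mice per genotype with low counts of the inducible genes, 157 to 423 expected counts per library for the Hspa1a and Hspa1b sum, so calls near the threshold moved with single libraries. Direction of the sum was the same in h1, h2 and h4 against WT, in h4 against h1 and h2, and in the mean of the mutants, under all alternatives run.

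With DESeq2, called genes were 1 in h2, 1 in h4, 2 in h4 against h1, 2 in h4 against h2 and 1 in the mean of the mutants, and the sum passed in h1 (-0.47, adjusted p = 0.0177) and in h4 against h1 (0.38, 0.0449); DESeq2 gave no adjusted p for the sum in the mean, nor for Hspa1a or Hspa1b in h2. Without the low-count filter, called genes were 2 in h1, 2 in h4 against h1, 2 in h4 against h2 and 2 in the mean, and the sum passed in h1 (-0.47, 0.000561) and in h4 against h1 (0.37, 0.00603). With only the groups compared, 1 gene was called in h1 and 3 in h4 against h1, and the sum passed in h1 (-0.47, 0.0273); this could not be applied to the mean of the mutants. With library totals alone, the sum passed in h4 against h1 (0.40, 0.0479). With limma on TPM, 0 genes were called in h2, in h4 against h1 and in h4 against h2, and the sum did not pass in h2 (-0.63, 0.159), h4 against h2 (0.52, 0.0979) or the mean (-0.40, 0.23). With Xist as a covariate, 0 genes were called in h2, and the sum did not pass in h2 (-0.54, 0.078) or the mean (-0.34, 0.219). The cause of these changes was not tested. Fits with a library left out also rest on a smaller sample.

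With each library left out in turn, called genes ranged from 0 to 2 in h1, 0 to 2 in h2, 0 to 1 in h4, 0 to 3 in h4 against h1, 0 to 3 in h4 against h2 and 0 to 2 in the mean. The log2 fold change of the sum ranged from -0.62 to -0.38 in h1 (called in 4 of 12), -0.67 to -0.52 in h2 (8 of 12), 0.29 to 0.53 in h4 against h1 (2 of 12), 0.43 to 0.59 in h4 against h2 (8 of 12), -0.44 to -0.36 in the mean (6 of 12) and -0.23 to 0.02 in h2 against h1, where 0.02 came without h1 replicate 1. Of 112 log2 fold changes followed, 30 changed sign in at least 1 alternative, of which 0 were called in edgeR. With limma on TPM, these were Hsp90aa1 (-0.039 in h1, -0.041 in h2, -0.022 in the mean), Hspa4l (0.012 in h1, -0.005 in h4, -0.016 in h4 against h1), Hspa1a (-0.001 in h4), Hspa9 (-0.027 in h1), Tcp1 (-0.015 in h2, -0.011 in h4). With Xist as a covariate, these were Hspa4l (0.035 in h1, 0.005 in h2, -0.004 in h4 against h1, 0.024 in the mean), Tcp1 (-0.031 in h1, -0.017 in h2, -0.009 in h4), Hspa9 (-0.023 in h1), Rbm3 (-0.056 in h1), Mt1 (-0.016 in h2). With library totals alone, these were Hsph1 (0.002 in h4 against h1), Hspb1 (0.01 in h4 against h1), Tcp1 (-0.0 in h1, as rounded). Without the low-count filter, these were Tcp1 (-0.001 in h4). As libraries were left out, ranges that cross 0 were Hspa8 (-0.021 to 0.008 in h1), Hspb1 (-0.004 to 0.224 in h1, -0.033 to 0.216 in h4, -0.116 to 0.124 in h4 against h1, -0.121 to 0.108 in the mean), Hspa4l (-0.033 to 0.026 in h1, -0.017 to 0.042 in h4, -0.037 to 0.022 in the mean), Hsp90aa1 (-0.006 to 0.033 in h2, -0.025 to 0.005 in h2 against h1), Hspa1a (-0.045 to 0.102 in h4, -0.171 to 0.067 in h2 against h1), Bag3 (-0.014 to 0.174 in h4, -0.002 to 0.164 in h2 against h1), Dnajb1 (-0.128 to 0.063 in h2 against h1), Hsf1 (-0.021 to 0.067 in h2 against h1, -0.111 to 0.005 in h4 against h1), Hsph1 (-0.049 to 0.004 in h4 against h1, -0.013 to 0.037 in h4 against h2), Tcp1 (-0.005 to 0.026 in h1, -0.006 to 0.04 in h2, -0.014 to 0.022 in h4), Hspa9 (-0.014 to 0.03 in h1), Rbm3 (-0.075 to 0.169 in h1), Mt1 (-0.049 to 0.117 in h2).

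The titles give h1 and h2 mice the same replicate numbers. Deviations of same-numbered mice correlated at -0.18, -0.14 and 0.04, so the numbers were not taken to pair animals; with a replicate block, 0 genes were called in h2 against h1 and the sum was at -0.13 (adjusted p = 0.888). No paired analysis was possible for other comparisons because the titles of h4 and WT mice share no such numbers.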
